A study of Mus musculus with 28 samples.

Results

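The Rab genes of vesicle traffic were taken as all protein-coding genes whose symbol is Rab followed by a number and at most a letter and a digit, which gave 59 of 55487 genes in each of 2 experiments. The study sequenced RNA in bulk from conventional dendritic cells (cDC) sort-purified from the spleens of C57BL/6 mice, with 2 biological replicates in each of 14 groups and 28 libraries in all. In experiment 1, hybrid cells came from Irf8 +32H/H and Irf8 +32H/+ mice, and type 1 (cDC1) and type 2 (cDC2) cells came from Irf8 +32H/H, Irf8 +32H/+ and wild-type (WT) mice. In experiment 2, hybrid cells came from Irf8 +32H/H Zeb2 -165D123, Irf8 +32H/H Nfil3-/- and Irf8 +32H/H mice, and cDC1 came from Irf8 +32H/H Nfil3-/-, Irf8 +32H/H and WT mice. The H allele alters an enhancer that lies 32 kb from Irf8, and H/+ and H/H stand below for mice with 1 or both copies of it. Every Nfil3-/- and Zeb2 -165D123 group was also H/H, so its control was the H/H group of the same cell type; the labels name the Zeb2 allele without describing it. The labels name no Cre driver or transgene, give no age or sort gate, and do not say whether cells of several mice were pooled.

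Rab proteins are small GTPases that sit on membranes and cycle between a GTP-bound active form and a GDP-bound inactive form. Guanine nucleotide exchange factors (GEFs) switch them on, GTPase-activating proteins (GAPs) switch them off, and each Rab marks a step of traffic such as budding from the Golgi, recycling to the surface or fusion with lysosomes. In dendritic cells these steps carry antigen and MHC molecules between phagosomes, endosomes and the surface. cDC1 are known for presenting antigen from dead cells on MHC class I, and Rab43 is known from mice to be needed by them for this.

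For 4 Rab genes whose RNA separates the cell types or genotypes described below, the 250 bases before the transcript start are shown as RefSeq gives them on GRCm38.p6, since Irf8 binds DNA with ETS-family partners. Capitals mark the ETS core GGAAGT, or, in Rab43, the ETS-IRF composite GGAANNGAA on the opposite strand. Rab11a and Rab33b were lower in H/H than in WT cDC1, Rab32 was lower in both H/H cDC1 and hybrid cells, and Rab43 was higher in cDC1 than in cDC2. The windows lie at chr9:64737757-64738006 on the minus strand for Rab11a, at chr10:10558208-10558457 on the minus strand for Rab32, at chr3:51483716-51483965 on the plus strand for Rab33b and at chr6:87809758-87810007 on the minus strand for Rab43.
Rab11a: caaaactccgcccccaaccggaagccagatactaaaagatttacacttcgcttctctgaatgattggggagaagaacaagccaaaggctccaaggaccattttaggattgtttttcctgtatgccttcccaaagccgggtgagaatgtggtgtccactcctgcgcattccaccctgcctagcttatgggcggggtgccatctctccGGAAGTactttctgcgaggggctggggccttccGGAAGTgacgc
Rab32: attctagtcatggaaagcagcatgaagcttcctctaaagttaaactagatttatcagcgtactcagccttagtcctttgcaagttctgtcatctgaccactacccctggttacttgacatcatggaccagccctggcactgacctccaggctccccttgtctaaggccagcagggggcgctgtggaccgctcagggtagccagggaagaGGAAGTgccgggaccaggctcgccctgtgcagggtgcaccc
Rab33b: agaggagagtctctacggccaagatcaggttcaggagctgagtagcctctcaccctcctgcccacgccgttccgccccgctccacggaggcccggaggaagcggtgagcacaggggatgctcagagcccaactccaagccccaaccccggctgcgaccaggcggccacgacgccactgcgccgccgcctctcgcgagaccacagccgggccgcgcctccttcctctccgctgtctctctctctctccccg
Rab43: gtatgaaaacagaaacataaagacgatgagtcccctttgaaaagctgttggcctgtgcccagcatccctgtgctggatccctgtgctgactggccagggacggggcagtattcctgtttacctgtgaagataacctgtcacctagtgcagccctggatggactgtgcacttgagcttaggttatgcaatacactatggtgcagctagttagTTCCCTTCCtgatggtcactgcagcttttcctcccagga
Rab11a held the ETS core at 2 places, Rab32 at 1 and Rab33b at none, on both strands searched. Of the 4 starts that RefSeq lists for Rab43, the one shown lies 2407 bases inside the gene and alone carried the composite. That start was shown because it held the composite, so the match in this window was fixed by the choice. Among the 60 promoters of the 48 Rab genes that had one in the table, 6 held GGAANNGAA and 10 held GGAAGT, against 6.99% and 19.7% of 32851 promoters of all genes. The AP-1 motif TGANTCA was in 2 Rab promoters (6.75% of all promoters), the E-box CACCTG in 9 (17.2% of all) and the Nfil3 motif TTANGTAA in 1, that of Rab29 (2.06% of all). The letters GGAAGT were added after the sequences had been seen. These matches are letters in a window and no measure of binding.

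Library totals were between 17.5 and 38.2 M estimated counts, and 3 counts corresponded to between 0.0728 and 0.172 counts per M (CPM). Irf8 averaged 834 CPM in H/H and 1160 CPM in H/+ cDC1, against 2270 CPM in WT cDC1. Zeb2 averaged 14.9 CPM in Zeb2 -165D123 hybrid cells against 42.8 CPM in H/H hybrid cells, and Nfil3 averaged 3.22 CPM in Nfil3-/- cDC1 against 36.3 CPM in H/H cDC1. The summed CPM of 7 cDC1 markers was 4290 to 5010 in WT cDC1, 1620 in each H/H hybrid library of experiment 1 and 162 to 171 in WT cDC2, and that of 6 cDC2 markers was 11.8 to 14.2, 489 to 518 and 948 to 955 in the same groups, so the sorted cells carried the markers of their labels. In experiment 1 each replicate 2 had Xist RNA and each replicate 1 had almost none, while in experiment 2 only the second replicates of Nfil3-/- cDC1, Nfil3-/- hybrid and Zeb2 -165D123 hybrid cells had it, so libraries with Xist were unequal between groups in experiment 2. In bulk RNA, fewer cells of a type and less RNA per cell cannot be told apart. No label ties a library to an animal, and each group had 2 libraries labelled biological duplicates. Each p-value of the main test rests on the spread between such duplicates. That spread was estimated over all groups of the experiment and in part shared across genes.

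Of the 59 Rab genes, 47 had enough counts to be tested in experiment 1 and 46 in experiment 2, where Rab39b dropped out. The other 12 were Rab34, Rab3b, Rab3c, Rab9b, Rab15, Rab17, Rab25, Rab27b, Rab33a, Rab40b, Rab42 and Rab44. The highest group mean among them was 0.561 CPM, for Rab34, a Rab of lysosome positioning and primary cilia. Rab3b and Rab3c, which belong to a family of regulated secretion, had no count in many libraries and at most 0.178 CPM and 0.134 CPM in any library. These genes were at or near the level of a few counts at this depth.

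Levels of different genes were compared as CPM per kb of exon. Rab7b, which in macrophages carries endosomal cargo toward the Golgi and limits Toll-like receptor signalling, led all Rab genes in WT cDC1 of experiment 1 at 221.8 CPM per kb. Rab7, needed for the fusion of late endosomes with lysosomes, followed at 162.4 CPM per kb, and Rab32, a Rab of lysosome-related organelles, at 148.9 CPM per kb. In WT cDC2, Rab7 led at 117 CPM per kb and Rab8a, which delivers cargo to the surface, followed at 77.87 CPM per kb, while Rab7b had 1.193 CPM per kb. Rab7b was first in every cDC1 group and in the Nfil3-/- and Zeb2 -165D123 hybrid cells, and second to Rab7 in the H/H hybrid cells of both experiments. Averaged over all 14 groups, the order was Rab7 (148.8 CPM per kb), Rab7b (133.8 CPM per kb), Rab32 (79.54 CPM per kb), Rab8a (64.86 CPM per kb) and Rab1b (58.01 CPM per kb), the last a Rab of transport between the endoplasmic reticulum and the Golgi.

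**Figure D1:**
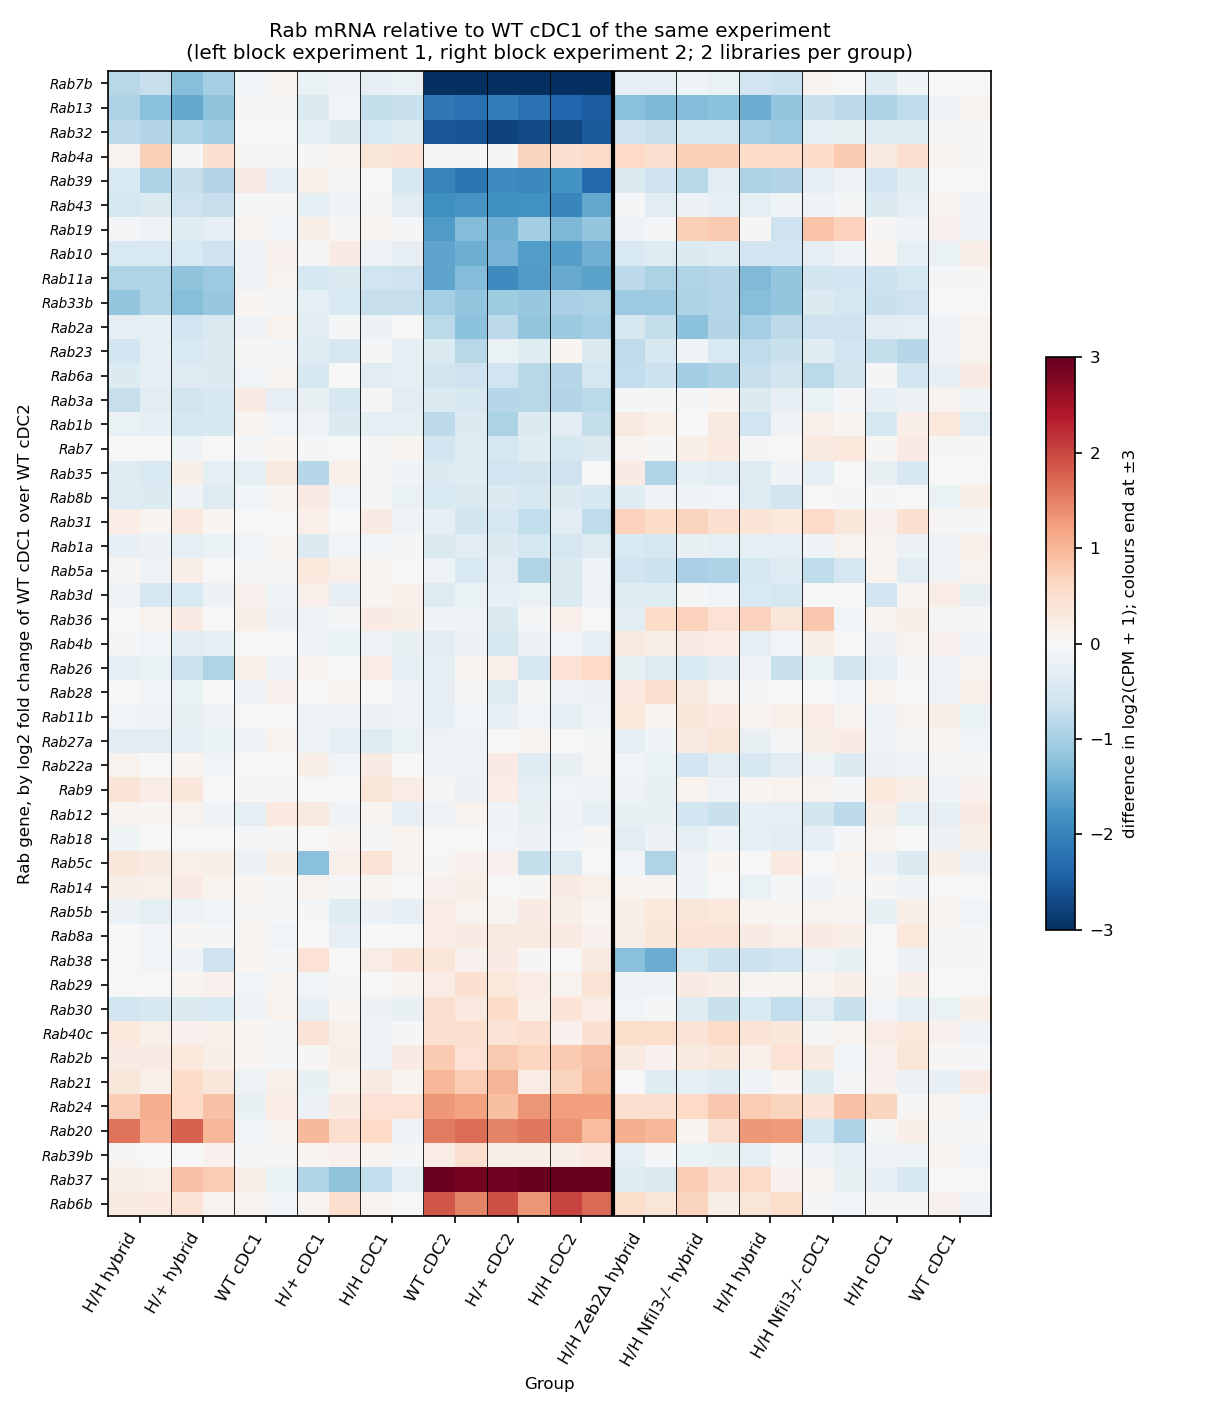
Heat map of the 47 tested Rab genes (rows, sorted by the log2 difference of WT cDC1 over WT cDC2) in every library (columns, 2 per group), as log2(CPM + 1) minus the mean of WT cDC1 of the same experiment, with colours that end at 3 in either direction (Zeb2Δ stands for Zeb2 -165D123). Rab7b, 185-fold higher in WT cDC1 than in WT cDC2, tops the rows and is dark in every cDC2 library, while Rab37, 9.85-fold lower in WT cDC1, stands near the foot.

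Summed over all 59 genes, Rab RNA made up 4442 and 4629 CPM in WT cDC1, against 2497 and 2613 CPM in WT cDC2. Rab7b alone gave 21.9% and 23.3% of that sum in WT cDC1, against 0.199% and 0.232% in WT cDC2. Without Rab7b the sums were 3468 and 3552 CPM in WT cDC1 and 2492 and 2607 CPM in WT cDC2, still without overlap. Hybrid cells of H/H mice summed to 3569 and 3561 CPM, below H/H cDC1 at 4052 and 4045 CPM and above H/H cDC2 at 2563 and 2555 CPM. H/+ hybrid cells summed to 3306 and 3330 CPM, against 4142 and 4101 CPM in H/+ cDC1 and 2476 and 2535 CPM in H/+ cDC2. In experiment 2 the sums were 3852 and 3729 CPM in Zeb2 -165D123 and 4002 and 4010 CPM in Nfil3-/- hybrid cells, against 3314 and 3405 CPM in H/H hybrid cells.

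**Figure D2:**
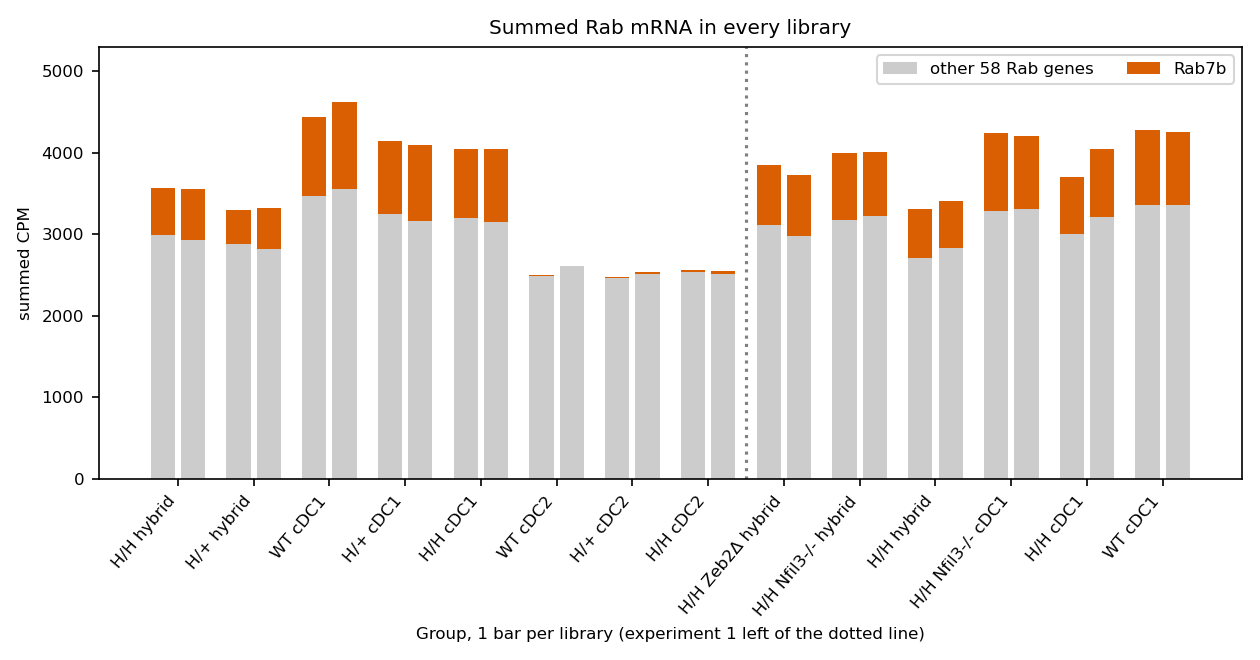
Summed CPM of all Rab genes per library, split into Rab7b and the rest, with the groups of each experiment side by side. WT cDC1 libraries reached 4442 and 4629 CPM and WT cDC2 libraries 2497 and 2613 CPM, with the hybrid libraries of experiment 1 between.

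The comparison of WT cDC1 with WT cDC2 asks how far the 2 normal lineages differ in their Rab genes. By edgeR's quasi-likelihood test with Benjamini-Hochberg adjustment over all genes and a threshold of 0.05, 17 of 47 Rab genes were higher and 10 lower in cDC1. Over all 16036 genes tested, 20.5% were higher and 23.4% lower, so the Rab genes had a larger share higher and a share lower near that of all genes. Their median log2 difference was 0.26, against -0.07 over all genes. By role, 7 of 12 tested genes of endoplasmic reticulum and Golgi traffic were higher and 3 lower, and 4 of 11 genes of recycling and surface delivery were higher and none lower (these were Rab13, Rab10, Rab11a and Rab8b). Among late endosome and lysosome genes 3 of 7 were higher and 3 lower, among early endosome and phagosome genes 1 of 7 was higher and 2 lower, and among secretory and lysosome-related organelle genes 1 of 7 was higher and 1 lower. Of the 3 genes with other roles, Rab23 was higher and Rab40c lower. Summed macrophage markers were 73.3 to 99.3 CPM in WT cDC1 against 599 to 607 CPM in WT cDC2, mostly Adgre1, and their part in the Rab differences was not tested.

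Among the genes of late endosomes, Rab7b had 974 and 1077 CPM in WT cDC1, against 4.97 and 6.07 CPM in WT cDC2. The groups were far apart, and the fitted difference was 185-fold (log2 difference 7.53 ± 0.333 SE, adjusted p = 6.67e-09). The gene lies at chr1:131688695-131715439 on the plus strand (GRCm38, GENCODE M21), and no exon of another gene overlaps its exons. Rab39, a Rab of phagosome acidification and antigen handling, had 37.6 and 26.4 CPM in WT cDC1, against 7.06 and 6.26 CPM in WT cDC2, a 4.80-fold difference (adjusted p = 5.3e-06). Rab24, linked to autophagy, went the other way with 1.53 and 2.46 CPM in WT cDC1 against 6.29 and 5.82 CPM in WT cDC2 (3.01-fold lower, adjusted p = 0.000289). Exons of Rab24 overlap Prelid1 on the opposite strand over 1258 bases, and the library kit is not described as keeping strand, so its level is uncertain. Rab7 itself differed by 1.39-fold, at 424 ± 22.5 CPM in WT cDC1 and 305 ± 27.9 CPM in WT cDC2 (SD, n = 2, adjusted p = 0.000939, edgeR).

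For recycling and delivery to the surface, Rab11a, the Rab of recycling endosomes, had 226 and 259 CPM in WT cDC1, against 80.6 and 97.3 CPM in WT cDC2. That is a 2.73-fold difference without overlap (log2 difference 1.45 ± 0.11, adjusted p = 4.61e-08). Rab10, which brings Toll-like receptor 4 to the surface of macrophages, had 98.2 and 115.8 CPM in WT cDC1, against 34.9 and 38.1 CPM in WT cDC2 (2.93-fold, adjusted p = 2.1e-07), with counts that were not whole in any library and 143 exonic bases shared with Rab10os on the opposite strand. Rab13, known from junction assembly in epithelium, was low in both with 5.66 and 5.43 CPM in WT cDC1 against 0.484 and 0.388 CPM in WT cDC2 (12.7-fold, adjusted p = 3.02e-07). All 3 genes had every cDC1 library above every cDC2 library. In this comparison 39 of 47 Rab genes did not overlap between the groups, in either direction.

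In the Golgi group, Rab43 had 211 and 221 CPM in WT cDC1, against 59.4 and 62.3 CPM in WT cDC2. The 3.54-fold difference (log2 difference 1.83 ± 0.132, adjusted p = 2.69e-08) carries a caution, because 4164 exonic bases of Rab43 are shared with Gm45140 on the same strand and its counts were not whole numbers in any library. Rab19, a less studied Rab of the Golgi group, had 32.0 and 28.2 CPM in WT cDC1, against 8.58 and 11.7 CPM in WT cDC2 (2.96-fold, adjusted p = 1.36e-06). Rab33b, a Golgi Rab that binds the autophagy protein Atg16l1, had 50.3 and 45.6 CPM in WT cDC1, against 23.2 and 20.5 CPM in WT cDC2 (2.20-fold, adjusted p = 1.7e-06). Its exons overlap Gm38160 on the opposite strand over 661 bases and its counts were not whole in any library, so its level is uncertain in the same way. Rab2a, of transport between the endoplasmic reticulum and the Golgi, had 24.8 and 28.5 CPM in WT cDC1, against 14.6 and 10.7 CPM in WT cDC2 (2.11-fold, adjusted p = 0.000102). These 4 genes were higher in both cDC1 libraries than in either cDC2 library.

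Among Rab genes of secretory and lysosome-related organelles, Rab32 had 349 and 347 CPM in WT cDC1, against 57.5 and 57.2 CPM in WT cDC2. The replicates lay close together, and the difference was 6.07-fold (log2 difference 2.60 ± 0.101, adjusted p = 2.35e-11). Rab37, a Rab of secretory granules in mast cells, had 3.22 and 2.23 CPM in WT cDC1, against 27.5 and 25.8 CPM in WT cDC2. It was 9.85-fold lower in cDC1 (log2 difference -3.30 ± 0.21, adjusted p = 6.4e-09). Rab20, a Rab of phagosome maturation in macrophages, belongs to the early endosome group and had 3.11 and 3.60 CPM in WT cDC1, against 11.8 and 12.9 CPM in WT cDC2 (3.68-fold lower, adjusted p = 0.000523). Exons of Rab20 overlap E230013L22Rik on the opposite strand over 356 bases, so its level here and below is uncertain. Its counts were not whole in 16 of 16 libraries of experiment 1 and 11 of 12 of experiment 2. Of 15 Rab genes that differed at least 2-fold, Rab6b and Rab39b, both lower in cDC1, stayed under 5 CPM in both groups.

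**Figure D3:**
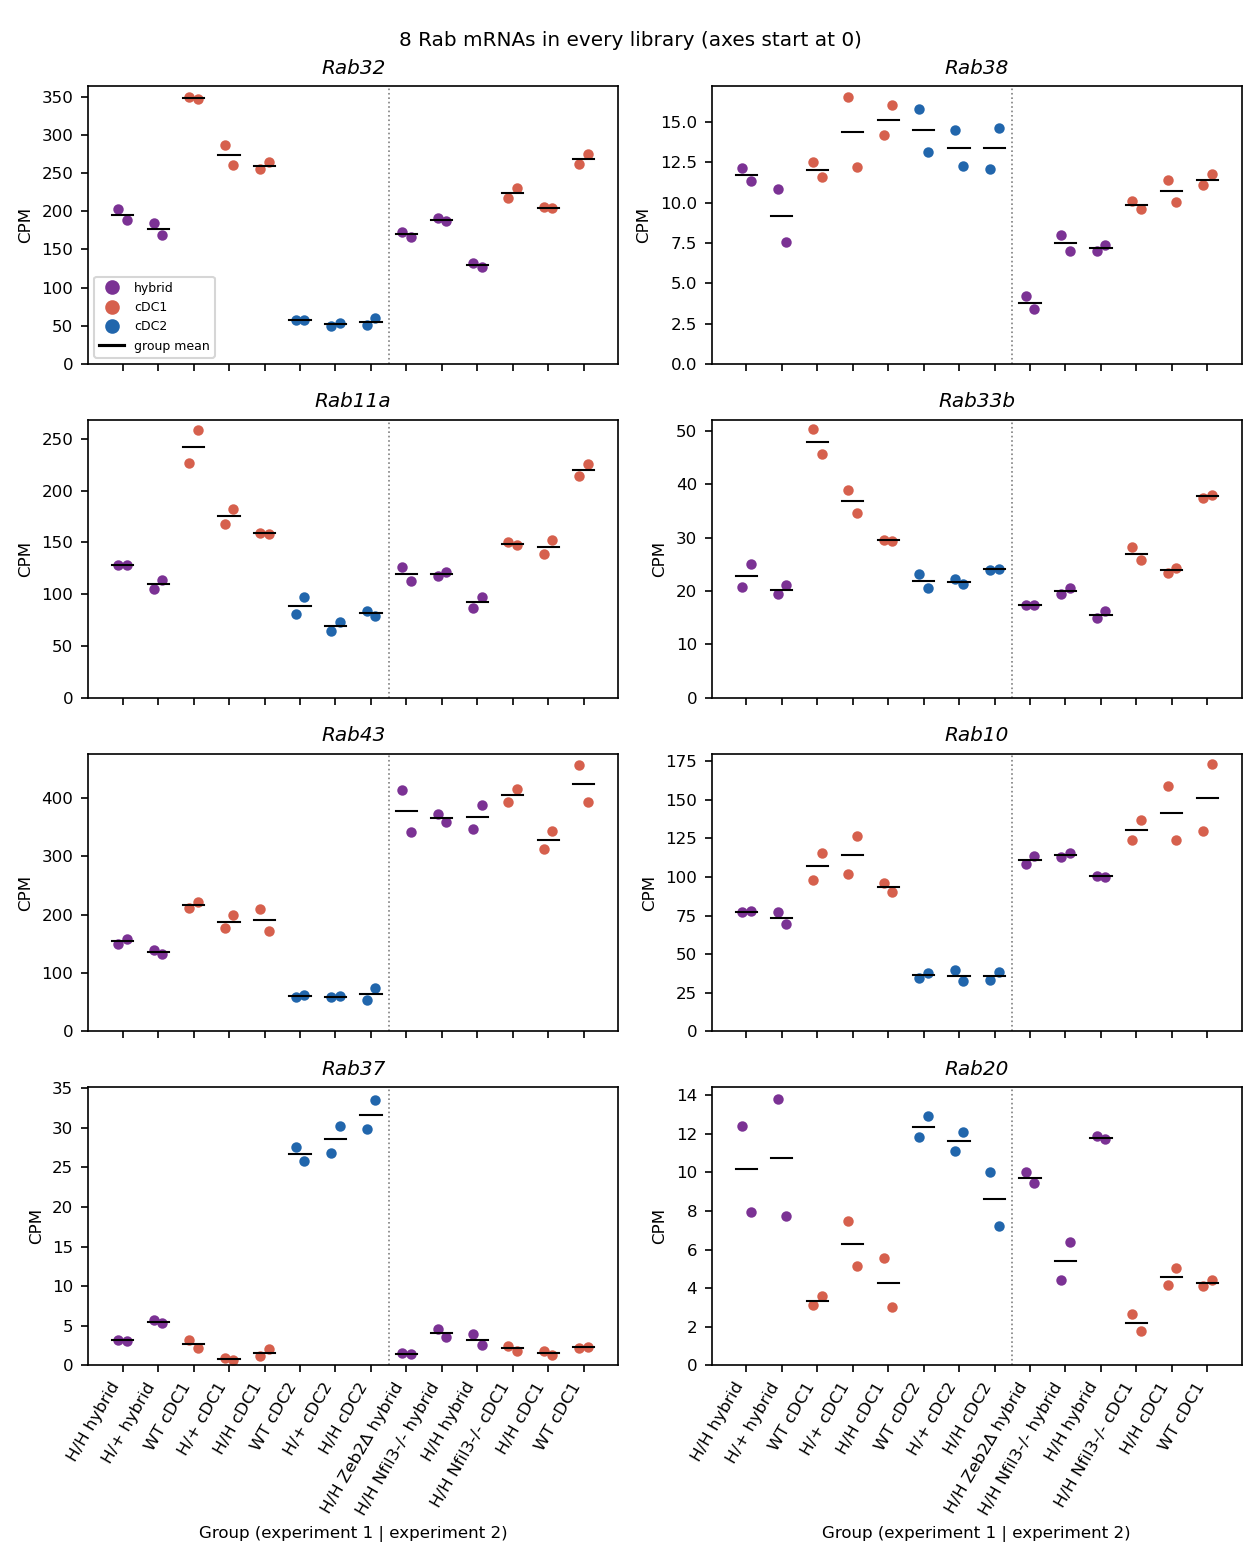
CPM per library of 8 Rab genes (points, axes from 0) with the group mean (bar), and the groups of each experiment along the horizontal axis. Rab32 had 349 and 347 CPM in WT cDC1 against 57.5 and 57.2 CPM in WT cDC2, Rab11a and Rab33b were lower in H/H than in WT cDC1 in both experiments, and Rab37 had 3.22 and 2.23 CPM in WT cDC1 against 27.5 and 25.8 CPM in WT cDC2.

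Several Rab genes studied in antigen presentation did not pass the test between the WT lineages. Rab27a, which delivers NADPH oxidase to dendritic cell phagosomes, had 31.4 and 37.1 CPM in WT cDC1 and 30.8 and 30.9 CPM in WT cDC2, and its group means ran from 24.3 to 35.6 CPM over all 14 groups. Rab14, of endosome to Golgi traffic, had 128 and 117 CPM in WT cDC1 and 134 and 140 CPM in WT cDC2. Rab22a, which guides MHC class I recycling in dendritic cells, had 8.81 and 8.77 CPM in WT cDC1 and 7.87 and 8.10 CPM in WT cDC2. Rab35, another Rab of fast recycling, had 8.88 and 13.3 CPM in WT cDC1 and 7.87 and 8.22 CPM in WT cDC2. Rab38, the close relative of Rab32, had 12.5 and 11.6 CPM in WT cDC1 and 15.8 and 13.2 CPM in WT cDC2, and Rab8a had 331 and 292 CPM against 360 and 368 CPM in the same groups. The values of these genes overlapped or lay close, in contrast to the separation of Rab32. Rab22a and Rab35 were near 20 CPM in WT cDC1 of experiment 2, with 20.5 and 21.6 CPM and with 23.3 and 23.7 CPM, so their levels differed between the experiments, and means and ranges over the 14 groups pool both. Other Rab genes shifted too. Rab43 had 455 and 393 CPM in WT cDC1 of experiment 2, against 211 and 221 CPM in experiment 1. In the same groups Rab2a had 65.05 and 75.6 CPM against 24.8 and 28.5 CPM, and Rab6a 34.57 and 49.45 CPM against 11.09 and 12.37 CPM. Rab32 went the other way, with 262 and 275 CPM against 349 and 347 CPM.

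The effect of the H allele within cDC1 was measured in both experiments for H/H and in experiment 1 for H/+. In H/H cDC1 of experiment 1, 3 of 47 Rab genes were lower than in WT (Rab33b, Rab11a and Rab32) and none higher, where 1.47% of all genes were lower and 2.7% higher. In experiment 2, with other libraries, 5 of 46 were lower (the same 3, with Rab13 and Rab23) and none higher, where 1.94% of all genes were lower and 4.37% higher. In H/+ cDC1, 2 Rab genes were lower than in WT, Rab37 and Rab11a, where 0.312% of all genes were lower. Rab11a, Rab33b and Rab32 changed by less than 2-fold and are described here because they recurred, a choice made after their values were seen.

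Rab33b had 29.5 and 29.4 CPM in H/H cDC1, against 50.3 and 45.6 CPM in WT cDC1 of experiment 1 (log2 difference -0.70 ± 0.118, adjusted p = 0.00218). The experiment 2 values were 23.4 and 24.3 CPM in H/H cDC1, against 37.47 and 37.99 CPM in WT cDC1 (log2 difference -0.66 ± 0.126, adjusted p = 0.00299). Rab33b was thus lower without overlap in both experiments, and H/+ cDC1 had 39.0 and 34.6 CPM, between the other genotypes. Between H/H and WT cDC1, 20 of 47 Rab genes in experiment 1 and 22 of 46 in experiment 2 did not overlap, in either direction. Rab11a had 159 and 158 CPM in H/H cDC1, against 226 and 259 CPM in WT cDC1 of experiment 1 (log2 difference -0.61 ± 0.108, adjusted p = 0.00299). In experiment 2 it had 139 and 153 CPM in H/H cDC1, against 214 and 226 CPM in WT cDC1 (log2 difference -0.59 ± 0.113, adjusted p = 0.0031). H/+ cDC1 had 168 and 183 CPM of Rab11a (log2 difference from WT -0.47 ± 0.108, adjusted p = 0.0448). Without WT cDC1 replicate 2 the adjusted p of Rab11a in H/H cDC1 of experiment 1 was 0.0603, and without WT cDC1 replicate 1, WT cDC1 replicate 2 or H/+ cDC1 replicate 1 that of Rab11a in H/+ cDC1 was up to 0.307. When only the 4 libraries compared were fitted, adjusted p in experiment 2 was 0.0505 for Rab33b and 0.0583 for Rab11a, and in experiment 1 that of Rab11a in H/+ cDC1 was 0.223.

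Rab32 had 255 and 264 CPM in H/H cDC1, against 349 and 347 CPM in WT cDC1 of experiment 1 (log2 difference -0.42 ± 0.0946, adjusted p = 0.0165). Experiment 2 gave 206 and 204 CPM in H/H cDC1, against 262 and 275 CPM in WT cDC1 (log2 difference -0.39 ± 0.103, adjusted p = 0.0309). The groups did not overlap, yet leaving out any one of the 4 libraries compared raised the adjusted p to as much as 0.151 in experiment 1 and 0.153 in experiment 2. In experiment 2 the adjusted p was also 0.0532 with a block for the replicate number, 0.0649 with no filter on low counts and 0.221 when only the groups compared were fitted. Rab13 had 2.36 and 2.72 CPM in H/H cDC1, against 4.90 and 5.85 CPM in WT cDC1 of experiment 2, a 2.11-fold difference (adjusted p = 0.0247). Without any one of those 4 libraries the adjusted p of Rab13 reached up to 0.17, and 0.057 when only the groups compared were fitted. Rab7b did not pass the test in either experiment, with 852 and 898 CPM in H/H cDC1 against 974 and 1077 CPM in WT cDC1 of experiment 1 (log2 difference -0.23 ± 0.245, adjusted p = 0.753). In experiment 2 it had 701 and 836 CPM in H/H cDC1 against 915 and 891 CPM in WT cDC1 (log2 difference -0.23 ± 0.112, adjusted p = 0.31), and in H/+ cDC1 it had 890 and 933 CPM (log2 difference from WT -0.17 ± 0.245, adjusted p = 0.809). Beside these differences, summed B cell markers were 114 to 119 CPM in H/H cDC1 against 27 to 30.2 CPM in WT cDC1 of experiment 1, nearly all of it Ms4a1, while Cd79a averaged 0.241 and 0.547 CPM in the same groups. In the same comparison the 6 cDC2 markers summed to 57.9 to 74.7 CPM in H/H cDC1 against 11.8 to 14.2 CPM in WT cDC1 of experiment 1, and to 126 to 140 CPM against 11.6 to 14.1 CPM in experiment 2, where Sirpa averaged 22.4 CPM in H/H cDC1 and 0.704 CPM in WT cDC1. The 7 cDC1 markers, Irf8 among them, summed to 2190 to 2270 CPM in H/H cDC1 against 4290 to 5010 CPM in WT cDC1 of experiment 1, and to 1810 to 1840 CPM against 4020 to 4520 CPM in experiment 2. The part of these markers in the lower Rab33b, Rab11a, Rab32 and Rab13 levels was not tested.

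In cDC2, Rab7b differed between H/H and WT cells. Among 47 Rab genes, Rab7b alone was higher in H/H than in WT cDC2 and none was lower, where 0.0686% of all genes were higher and 0.0125% lower. Rab7b had 4.97 and 6.07 CPM in WT cDC2, 12.2 and 20.4 CPM in H/+ cDC2 and 21.4 and 37.9 CPM in H/H cDC2, so the libraries of the 3 genotypes did not overlap. Against WT cDC2, 12 of 47 Rab genes did not overlap in H/+ cDC2 and 12 of 47 in H/H cDC2. The difference between H/H and WT cDC2 was 5.36-fold (log2 difference 2.42 ± 0.279, adjusted p = 0.00517), and that between H/+ and WT cDC2 was 2.94-fold without passing the test (log2 difference 1.55 ± 0.279, adjusted p = 0.232). Without either WT cDC2 library the adjusted p for H/H was up to 0.124, and fitted on only these groups it was 0.141. In H/+ cDC2 no Rab gene passed the edgeR test, 3 had an unadjusted p below 0.05, DESeq2 called 1, and 0.0249% of all genes passed in either direction. The sum of the 7 cDC1 markers also differed by genotype, with 162 to 171 CPM in WT, 178 to 179 CPM in H/+ and 224 to 247 CPM in H/H cDC2. Irf8, which is 1 of the 7, averaged 48.4, 60.4 and 97.9 CPM in the same order. Xcr1 averaged 5.45, 6.89 and 9.00 CPM, Clec9a 6.64, 11.3 and 17.5 CPM and Cadm1 11.1, 14.3 and 15.2 CPM. The other members did not rise in this way, with Cd8a at 24.7, 18.6 and 24 CPM, Itgae at 0.884, 0.379 and 0.705 CPM and Batf3 at 69.7, 66.3 and 71.2 CPM. The part of cDC1 or hybrid cells within the cDC2 sort in the Rab7b level was not tested.

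The effect of H/H differed between cDC1 and cDC2 for 2 of 47 Rab genes, Rab7b and Rab33b, and in both it was the more negative in cDC1, where 0.505% of all genes went that way past the threshold. For Rab7b the difference of the 2 effects was -2.65 ± 0.37 on the log2 scale (adjusted p = 0.00303, edgeR). For Rab33b it was -0.84 ± 0.168 (adjusted p = 0.0137), with 23.9 and 24.1 CPM in H/H cDC2 against 23.2 and 20.5 CPM in WT cDC2. Rab33b lost this call (adjusted p up to 0.084) without WT cDC1 replicate 1, WT cDC2 replicate 2, H/H cDC2 replicate 2 or either H/H cDC1 library.

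**Figure D4:**
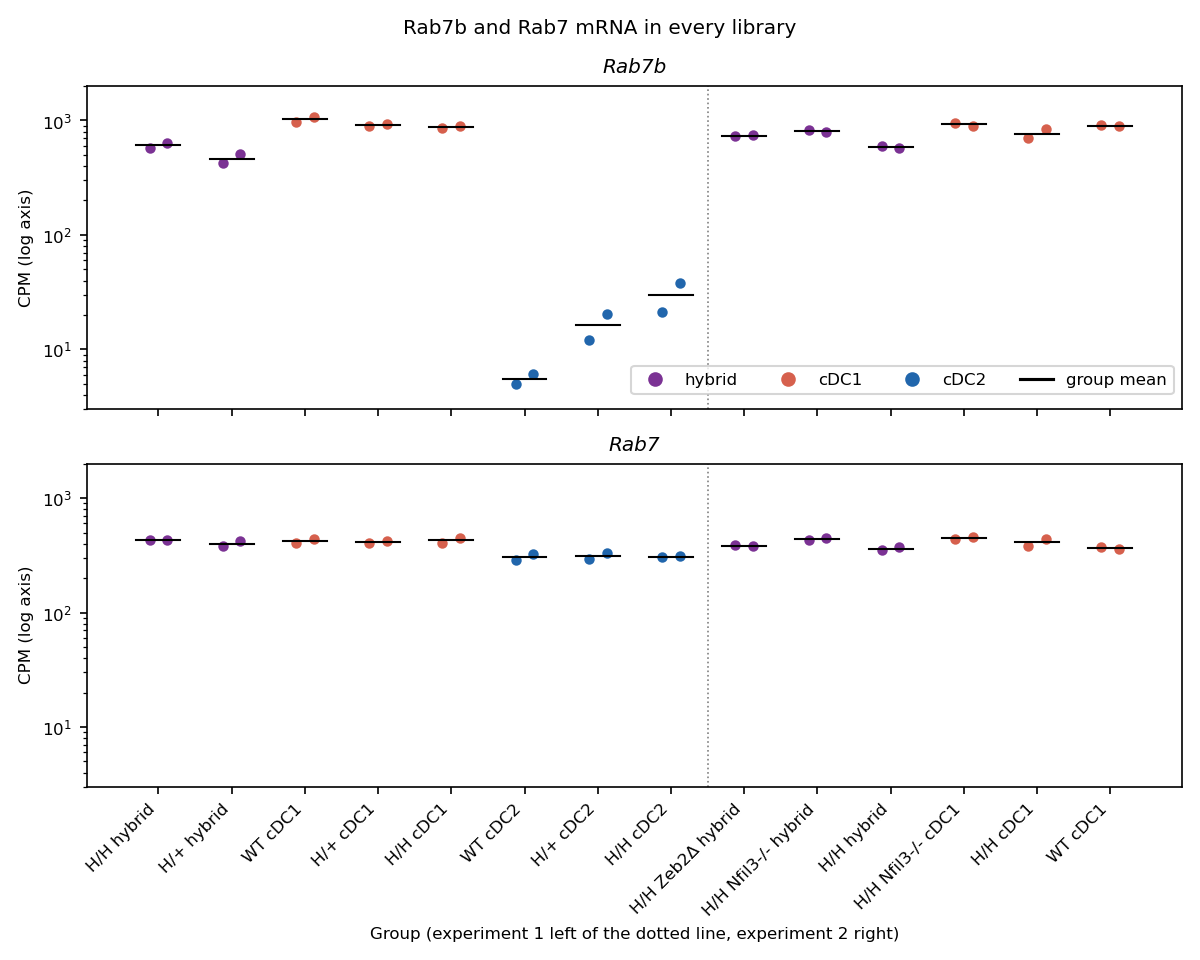
CPM per library (log axis) of Rab7b and of Rab7, its relative in late endosomes, in every group of both experiments. Rab7b reached up to 1077 CPM in WT cDC1 and down to 4.97 CPM in WT cDC2, with hybrid cells between 421 and 827 CPM, while group means of Rab7 stayed between 305 and 451 CPM.

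Hybrid cells were compared with cDC1 and cDC2 of their own genotype to place them between the lineages. Against H/H cDC1 in experiment 1, 2 Rab genes were higher and 1 lower, where 5.24% of all genes were higher and 2.61% lower. The same comparison in experiment 2 had 2 higher and 7 lower, where 7.24% of all genes were higher and 5.25% lower. Against H/+ cDC1, H/+ hybrid cells had 2 Rab genes higher and 10 lower, where 9.77% of all genes were higher and 6.68% lower. Against cDC2, measured in experiment 1 alone, 11 Rab genes were higher and 6 lower in H/H hybrid cells (12.9% and 12.5% of all genes) and 11 higher and 5 lower in H/+ hybrid cells (10.3% and 8.71% of all genes). Comparisons of hybrid cells with cDC1 and with cDC2 share the hybrid libraries.

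Rab7b had 575 and 634 CPM in experiment 1 H/H hybrid cells, against 852 and 898 CPM in H/H cDC1 (log2 difference -0.53 ± 0.245, adjusted p = 0.25) and 21.4 and 37.9 CPM in H/H cDC2 (20.4-fold higher, adjusted p = 6.7e-07). In H/+ hybrid cells it had 421 and 505 CPM, against 890 and 933 CPM in H/+ cDC1 (log2 difference -0.98 ± 0.247, adjusted p = 0.0187) and 12.2 and 20.4 CPM in H/+ cDC2 (28.5-fold higher, adjusted p = 5.27e-07). In experiment 2 it had 602 and 575 CPM in H/H hybrid cells, against 701 and 836 CPM in H/H cDC1 (log2 difference -0.38 ± 0.112, adjusted p = 0.0327). Hybrid libraries of experiment 1 thus lay between those of cDC1 and cDC2, far above cDC2, and those of experiment 2, which had no cDC2, lay below cDC1. The calls against cDC1 were lost when libraries were left out, with an adjusted p of up to 0.134 for H/+ without any one of the 4 libraries compared. In experiment 2 leaving out H/H cDC1 replicate 2 or either H/H hybrid library gave up to 0.244. The adjusted p was 0.0959 for H/+ with no filter on low counts, and in experiment 2 it was 0.0536 with a block for the replicate number and 0.0766 with only the groups compared. H/H and H/+ hybrid cells did not differ past the threshold in Rab7b (log2 difference 0.38 ± 0.245, adjusted p = 0.841) or in any other Rab gene, with 3 at an unadjusted p below 0.05, none called by DESeq2, and 0.131% of all genes called in either direction.

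Rab32 had 203 and 188 CPM in experiment 1 H/H hybrid cells, against 255 and 264 CPM in H/H cDC1 (log2 difference -0.41 ± 0.0948, adjusted p = 0.0142) and 51.3 and 59.6 CPM in H/H cDC2 (3.53-fold higher, adjusted p = 5.07e-09). In H/+ hybrid cells it had 185 and 169 CPM, against 287 and 261 CPM in H/+ cDC1 (log2 difference -0.63 ± 0.095, adjusted p = 0.00024) and 49.9 and 53.4 CPM in H/+ cDC2 (3.43-fold higher, adjusted p = 9.77e-09). The second experiment gave 132 and 127 CPM in H/H hybrid cells, against 206 and 204 CPM in H/H cDC1 (log2 difference -0.67 ± 0.104, adjusted p = 0.000506). Rab32 was lower in every hybrid library than in the cDC1 libraries of its genotype, and the call against H/H cDC1 in experiment 1 was lost (adjusted p up to 0.151) without any one of the 4 libraries.

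Rab37 and Rab20, both low in cDC1, were higher in hybrid cells than in cDC1. Rab37 had 5.75 and 5.29 CPM in H/+ hybrid cells, against 0.975 and 0.610 CPM in H/+ cDC1 (6.96-fold higher, adjusted p = 1.57e-06) and 26.8 and 30.3 CPM in H/+ cDC2 (5.18-fold lower, adjusted p = 6.21e-07). In H/H hybrid cells it had 3.20 and 3.10 CPM, against 1.22 and 2.00 CPM in H/H cDC1 (1.97-fold higher, adjusted p = 0.0193) and 29.8 and 33.5 CPM in H/H cDC2 (10.0-fold lower, adjusted p = 1.91e-08). Hybrid cells therefore had little Rab37 beside cDC2. Rab20 had 12.4 and 7.95 CPM in H/H hybrid cells, against 5.552 and 3.002 CPM in H/H cDC1 of experiment 1 (2.37-fold higher, adjusted p = 0.0377), and H/H cDC2 had 10.0 and 7.22 CPM. In experiment 2 Rab20 had 11.9 and 11.7 CPM in H/H hybrid cells, against 4.15 and 5.05 CPM in H/H cDC1 (2.56-fold higher, adjusted p = 0.000919). Its call in experiment 1 was lost without H/H cDC1 replicate 2 or H/H hybrid replicate 1 (adjusted p up to 0.287) and in a fit of only the 4 libraries compared (0.0638). Summed macrophage markers were 456 to 462 CPM in H/H hybrid cells against 79.2 to 104 CPM in H/H cDC1 of experiment 1, and 316 to 371 CPM against 76.8 to 78 CPM in experiment 2, with Adgre1 the highest of the 7 in hybrid cells; their part in the Rab20 and Rab37 levels was not tested.

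Other genes high in cDC1 were also higher in hybrid cells than in cDC2. Rab43 had 150 and 159 CPM in H/H hybrid cells, against 54.6 and 74.0 CPM in H/H cDC2 (2.41-fold higher, adjusted p = 4.3e-06), and 139 and 133 CPM in H/+ hybrid cells, against 59.4 and 60.2 CPM in H/+ cDC2 (2.27-fold higher, adjusted p = 1.19e-05). Rab10 had 77.2 and 78.0 CPM in H/H hybrid cells, against 33.5 and 38.5 CPM in H/H cDC2 (2.16-fold higher, adjusted p = 2.2e-05), and 77.5 and 69.5 CPM in H/+ hybrid cells, against 39.9 and 32.5 CPM in H/+ cDC2 (2.03-fold higher, adjusted p = 6.71e-05). Both genes were lower in H/+ hybrid cells than in H/+ cDC1, with log2 differences of -0.47 for Rab43 (adjusted p = 0.0194) and -0.64 for Rab10 (adjusted p = 0.00328). Between H/H hybrid cells and H/H cDC1, Rab43 passed the edgeR test in neither experiment and changed sign. Its log2 difference was -0.31 in experiment 1 (adjusted p = 0.182) and 0.16 in experiment 2 (adjusted p = 0.425). That of Rab10 was -0.27 in experiment 1 (adjusted p = 0.275) and -0.50 in experiment 2 (adjusted p = 0.0323). Rab39 had 22.6 and 16.2 CPM in H/H hybrid cells, against 8.4 and 5.414 CPM in H/H cDC2 (2.81-fold higher, adjusted p = 0.000557), and 19.0 and 16.7 CPM in H/+ hybrid cells, against 7.77 and 7.45 CPM in H/+ cDC2 (2.34-fold higher, adjusted p = 0.00316). Rab19 had 28.8 and 27.3 CPM in H/H hybrid cells, against 11.2 and 12.8 CPM in H/H cDC2 (2.34-fold higher, adjusted p = 4.42e-05). In all of these the hybrid libraries were above the cDC2 libraries. Against cDC2, 36 of 47 Rab genes did not overlap in H/H hybrid cells and 37 of 47 in H/+ hybrid cells, in either direction. The call of Rab43 against H/+ cDC1 was lost (adjusted p up to 0.126) without H/+ cDC1 replicate 2 or either H/+ hybrid library.

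Rab11a and Rab33b passed the test as lower in hybrid cells than in cDC1 in 2 of the 3 comparisons. Rab11a had 105 and 114 CPM in H/+ hybrid cells, against 168 and 183 CPM in H/+ cDC1 (log2 difference -0.68 ± 0.108, adjusted p = 0.000392). In experiment 2 it had 86.8 and 97.5 CPM in H/H hybrid cells, against 139 and 153 CPM in H/H cDC1 (log2 difference -0.66 ± 0.114, adjusted p = 0.0011). Rab33b had 19.3 and 21.2 CPM in H/+ hybrid cells, against 39.0 and 34.6 CPM in H/+ cDC1 (log2 difference -0.86 ± 0.12, adjusted p = 0.000121). In experiment 2 it had 14.9 and 16.3 CPM in H/H hybrid cells, against 23.4 and 24.3 CPM in H/H cDC1 (log2 difference -0.61 ± 0.13, adjusted p = 0.0053), and without H/H hybrid replicate 1 the adjusted p was 0.0623. In H/H hybrid cells of the first experiment, which did not pass the test, Rab11a had 128.1 and 128.4 CPM, against 159 and 158 CPM in H/H cDC1 (log2 difference -0.31 ± 0.108, adjusted p = 0.105). Rab33b had 20.7 and 25.1 CPM there, against 29.5 and 29.4 CPM in H/H cDC1 (log2 difference -0.37 ± 0.119, adjusted p = 0.0796). Both genes were lower in every hybrid library than in the cDC1 libraries compared. Between hybrid cells and cDC1 of experiment 1, 25 of 47 Rab genes did not overlap in H/+ and 24 of 47 in H/H cells. In experiment 2, 26 of 46 did not overlap.

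Placed on a scale from cDC2 (position 0) to cDC1 (position 1) of the same genotype in log2(CPM + 1), the 27 Rab genes that differed between the WT lineages had a median position of 0.809 in H/H and 0.652 in H/+ hybrid cells. Over all 7050 genes that differed between the WT lineages the medians were 0.668 and 0.525. Of the 27 Rab genes, 18 lay between cDC1 and cDC2 in H/H hybrid cells (66.7%, against 71.1% of all such genes) and 20 in H/+ hybrid cells (74.1%, against 76.1%). Nearer to cDC1 were 21 of 27 in H/H (77.8%, against 66.7% of all) and 19 of 27 in H/+ hybrid cells (70.4%, against 53% of all). Rab7b stood at 0.891 in H/H and 0.830 in H/+ hybrid cells, and Rab32 at 0.816 and 0.737. By group means Rab33b lay below both lineages in each genotype, and Rab30, a Golgi Rab with lower level in cDC1, also lay below both. For Rab33b the libraries did not separate well from cDC2. The H/H hybrid libraries had 20.7 and 25.1 CPM of it, on both sides of the 23.9 and 24.1 CPM in H/H cDC2. In H/+ hybrid cells it had 19.33 and 21.19 CPM, against 22.19 and 21.24 CPM in H/+ cDC2. Positions are a description, and a few libraries set each one.

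The loss of Nfil3, a transcription factor of the cDC1 lineage, was compared within H/H cells. In cDC1, 1 of 46 Rab genes was higher and 1 lower in Nfil3-/- cells, where 1.34% of all genes were higher and 1.69% lower. In hybrid cells 3 were higher and 1 lower, where 1.93% of all genes were higher and 1.8% lower. Rab19 had 45.1 and 40.3 CPM in H/H Nfil3-/- cDC1, against 25.0 and 23.0 CPM in H/H cDC1 (1.78-fold higher, adjusted p = 0.0159). In hybrid cells it had 40.8 and 43.4 CPM in Nfil3-/- cells, against 25.2 and 15.6 CPM in H/H cells (2.06-fold higher, adjusted p = 0.00351). Rab19 was thus above its control in both cell types, and Rab20 was below it, with 4.44 and 6.38 CPM in Nfil3-/- hybrid cells against 11.9 and 11.7 CPM in H/H hybrid cells (2.17-fold lower, adjusted p = 0.00949). In cDC1 Rab20 averaged 2.22 ± 0.612 CPM in Nfil3-/- cells and 4.60 ± 0.636 CPM in H/H cells (SD, n = 2, adjusted p = 0.0315, edgeR), under 5 CPM in both.

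Rab32 had 191 and 187 CPM in Nfil3-/- hybrid cells, against 132 and 127 CPM in H/H hybrid cells (1.46-fold higher, adjusted p = 0.00601). Rab7b had 827 and 786 CPM in Nfil3-/- hybrid cells, against 602 and 575 CPM in H/H hybrid cells (1.37-fold higher, adjusted p = 0.032). In cDC1 Rab7b had 954 and 897 CPM in Nfil3-/- cells, against 701 and 836 CPM in H/H cells, which did not pass the test (log2 difference 0.27 ± 0.112, adjusted p = 0.257). None of the 46 Rab genes had Nfil3 effects that differed between hybrid cells and cDC1 by the edgeR test, with 2 at an unadjusted p below 0.05, none called by DESeq2 and 0.00689% of all genes called; for Rab7b the difference of effects was 0.19 ± 0.158. Leaving out libraries lost most of these calls, with adjusted p up to 0.107 for Rab19 in cDC1 and up to 0.258 for Rab7b in hybrid cells without any one of the 4 libraries compared. In hybrid cells Rab19 was lost without H/H replicate 2 (0.0694), Rab32 without H/H replicate 2 or either Nfil3-/- library (up to 0.117) and Rab20 without either H/H library or Nfil3-/- replicate 1 (up to 0.137). For Rab7b the adjusted p was 0.0533 with a block for the replicate number and 0.0505 with a term for libraries with Xist. Neutrophil markers summed to 21.3 to 27.8 CPM in Nfil3-/- cDC1 against 0.223 to 0.256 CPM in H/H cDC1, and to 38.3 to 71.4 CPM against 2.93 to 5.13 CPM in hybrid cells, with Ngp the highest of the 5 in Nfil3-/- cells and Ly6g at 0 in both H/H groups. The 7 cDC1 markers summed to 1900 to 2060 CPM in Nfil3-/- hybrid cells against 1220 to 1270 CPM in H/H hybrid cells. Itgae averaged 349 CPM against 51.3 CPM there, and Xcr1 585 CPM against 352 CPM. Clec9a was close, at 189 CPM against 178 CPM, and Cd8a alone was lower, at 3.03 CPM against 5.85 CPM. The 6 cDC2 markers summed to 626 to 652 CPM against 704 to 738 CPM in the same groups. In cDC1 the 7 cDC1 markers summed to 2250 to 2340 CPM in Nfil3-/- cells against 1810 to 1840 CPM in H/H cells. Itgae averaged 299 CPM against 72.5 CPM there, Clec9a 209 CPM against 207 CPM and Cd8a 31 CPM against 86.7 CPM. The part of these markers in the Rab levels was not tested.

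In hybrid cells with the Zeb2 -165D123 allele, 1 of 46 Rab genes was higher and 1 lower than in H/H hybrid cells, where 2.23% of all genes were higher and 1.79% lower. These were the related Rabs of lysosome-related organelles. Rab38 had 4.20 and 3.40 CPM in Zeb2 -165D123 hybrid cells, against 7.01 and 7.39 CPM in H/H hybrid cells (1.90-fold lower, adjusted p = 0.0129). Rab32 had 173 and 167 CPM in Zeb2 -165D123 hybrid cells, against 132 and 127 CPM in H/H hybrid cells (1.32-fold higher, adjusted p = 0.0413). The groups did not overlap for either gene, but 30 of the 46 Rab genes did not overlap in this comparison. Both changes are under 2-fold, and both genes were named after their values were seen. Rab7b had 732 and 746 CPM in Zeb2 -165D123 hybrid cells, against 602 and 575 CPM in H/H hybrid cells, without passing the test (log2 difference 0.33 ± 0.112, adjusted p = 0.134). The call of Rab38 was lost (adjusted p up to 0.12) without either H/H library or Zeb2 -165D123 replicate 2, and that of Rab32 (up to 0.252) without any one of the 4. For Rab32 the adjusted p was also 0.068 with a block for the replicate number, 0.0815 with a term for libraries with Xist, 0.14 with no filter on low counts and 0.0544 with only the groups compared. Macrophage markers summed to 635 to 731 CPM in Zeb2 -165D123 against 316 to 371 CPM in H/H hybrid cells. The 7 cDC1 markers summed to 1540 to 1830 CPM in Zeb2 -165D123 against 1220 to 1270 CPM in H/H hybrid cells, and the 6 cDC2 markers, Zeb2 among them, to 536 to 543 CPM against 704 to 738 CPM. The part of these markers in the Rab32 and Rab38 levels was not tested.

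The H/H effect in cDC1 and the difference between H/H hybrid cells and H/H cDC1 were each measured in both experiments, which share no library. For H/H against WT cDC1, 34 of 46 Rab genes had the same sign in both (73.9%, against 68.4% of 14347 genes), and 24 were lower in both (52.2%, against 33.7%). All 3 Rab genes called in experiment 1 were among the 5 called in experiment 2. Across these 46 genes Pearson's r between the log2 differences was 0.897, and 0.682 without Rab4a, a gene with a few counts per library, beside 0.489 over all genes. For H/H hybrid cells against H/H cDC1, 32 of 46 had the same sign (69.6%, against 72.4% of all genes), and Rab32, Rab37 and Rab20 were called in both experiments. Here r across the Rab genes was 0.771, beside 0.649 over all genes. Genes of 1 library are not independent replicates, so no p is given.

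**Figure D5:**
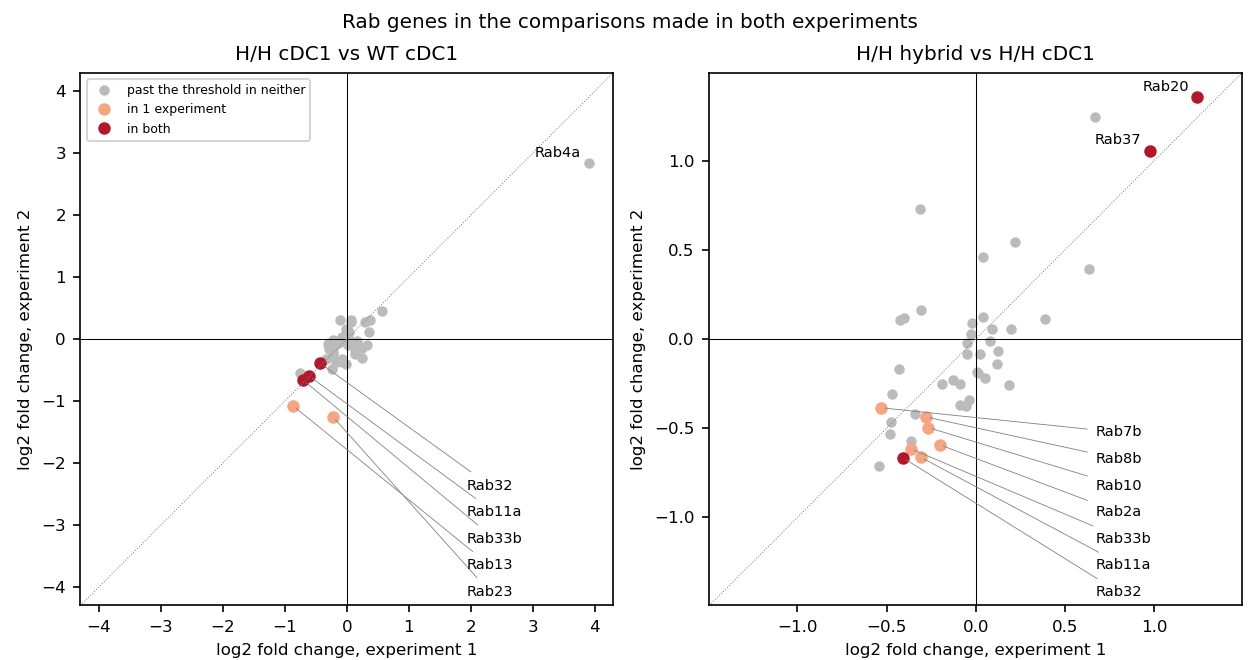
Log2 difference of each Rab gene in experiment 1 (horizontal) against experiment 2 (vertical) for H/H against WT cDC1 and for H/H hybrid cells against H/H cDC1, 1 point per gene. Rab33b, Rab11a and Rab32 lay below 0 on both axes in each panel, and Rab20 and Rab37 lay above 0 on both axes for hybrid cells.

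Some genes that switch Rabs on and off differed between the lineages. Between WT cDC1 and WT cDC2, 7 of 36 tested GEFs were higher and 15 lower in cDC1, and 5 of 34 GAPs with a TBC domain were higher and 12 lower. Their median log2 differences were -0.24 and -0.28, against -0.07 over all genes. Of 35 effectors, proteins that bind active Rabs, 7 were higher and 5 lower, and of 7 genes of prenylation and membrane cycling 2 were higher and 2 lower. Beside these counts, 20.5% of all genes were higher and 23.4% lower. Each regulator named here passed the edgeR test. Rin2, a GEF of the early endosomal Rab5, averaged 2.03 ± 0.142 CPM in WT cDC1 and 46.7 ± 5.78 CPM in WT cDC2, and Dennd3, a GEF of Rab12, averaged 4.401 ± 0.164 and 66.9 ± 1.77 CPM in the same groups (SD, n = 2). Dennd2d, of a family of GEFs for Rab9, went the other way with 43.9 ± 5.42 CPM in WT cDC1 and 8.64 ± 0.141 CPM in WT cDC2. Tbc1d4, known in fat and muscle as a GAP for Rab10, averaged 364 ± 38.5 CPM in WT cDC1 and 1331 ± 13.9 CPM in WT cDC2, so that Rab10 and this GAP had opposite directions. Tbc1d16 averaged 1.12 ± 0.411 and 19.5 ± 0.414 CPM and Tbc1d30 1.5 ± 0.286 and 12.2 ± 2.17 CPM in the same groups. Rab11fip4, an effector of Rab11, averaged 49.6 ± 1.52 CPM in WT cDC1 and 24.9 ± 1.72 CPM in WT cDC2.

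Some of these regulators stood between the lineages in hybrid cells of experiment 1, the only experiment with cDC2. Rin2 averaged 11.2 ± 0.966 CPM in H/H hybrid cells and 3.51 ± 0.914 CPM in H/H cDC1 of experiment 1, and 9.76 ± 1.36 and 3.71 ± 0.181 CPM in experiment 2. Tbc1d16 averaged 4.56 ± 0.724 CPM in H/H hybrid cells and 1.19 ± 0.152 CPM in H/H cDC1 of experiment 1, and 4.62 ± 0.0713 and 1.15 ± 0.179 CPM in experiment 2. Dennd2d averaged 19.9 ± 1.59 CPM in H/H hybrid cells and 28.6 ± 2.44 CPM in H/H cDC1 of experiment 1, and 14.4 ± 2.67 and 24.4 ± 2 CPM in experiment 2. Each passed the test against H/H cDC1 in both experiments. In H/H cDC2 Rin2 averaged 41.1 ± 0.309 CPM and Tbc1d16 25.3 ± 2.39 CPM, while Dennd2d had 8.64 ± 0.141 CPM in WT cDC2. Against H/H cDC1, 3 of 36 GEFs were higher and 2 lower in experiment 1 and 5 higher and 1 lower in experiment 2. Of the GAPs, 4 of 34 were higher and 2 lower in experiment 1, and 5 of 33 were higher and 1 lower in experiment 2. The shares of all genes were 5.24% higher and 2.61% lower in experiment 1, and 7.24% higher and 5.25% lower in experiment 2. Tbc1d4 averaged 365 ± 11.6 CPM in H/H hybrid cells, far below the 1331 ± 76.1 CPM of H/H cDC2. In Nfil3-/- hybrid cells Dennd2d averaged 28.3 ± 0.237 CPM, against 14.4 ± 2.67 CPM in H/H hybrid cells. In Zeb2 -165D123 hybrid cells 3 of 36 GEFs were higher and none lower, where 2.23% of all genes were higher and 1.79% lower. These were Rab3il1, a GEF of Rab8 (10.2 ± 0.404 CPM against 2.30 ± 0.0227 CPM in H/H hybrid cells), Als2cl (38.3 ± 4.62 CPM against 22.6 ± 0.412 CPM) and Hps4, a subunit of the BLOC-3 complex that switches on Rab32 and Rab38 (49.8 ± 5.89 CPM against 34.2 ± 0.88 CPM). Rab3il1 also passed the test as higher in H/H hybrid cells than in H/H cDC1 in both experiments. It averaged 4.89 ± 0.141 CPM against 1.02 ± 0.0851 CPM in experiment 1, and 2.30 ± 0.0227 CPM against 0.648 ± 0.41 CPM in experiment 2.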

How the data were processed

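The deposited tables, 1 per experiment, hold expected counts (estimated reads per gene, of which 10.8% and 10.2% were not whole) that the authors had not scaled; the submitters' processing notes name bcl2fastq, DRAGEN and edgeR, and the genome build and versions are not given in the sources used here. Per the labels' protocols, libraries came from 10 ng of total RNA by the SMARTer Ultra Low kit, for which no strand marking is stated. Of 55774 lines, 55487 gene IDs remained after repeated lines were dropped, and counts were rounded to whole numbers. Each experiment was fitted apart in R 4.3.3 with edgeR 4.0.16 (filterByExpr, TMM, glmQLFit with robust estimation, glmQLFTest), with 1 coefficient per group and all its libraries (16036 and 14504 genes, 8 and 6 residual degrees of freedom). P-values were adjusted by Benjamini and Hochberg's method across every gene tested in a contrast (threshold 0.05). An SE belongs to a log2 difference, and CPM use TMM-scaled libraries. Exon lengths, overlaps and gene positions came from GENCODE M21 on GRCm38.

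Named were Rab7b in every comparison, Rab genes past the threshold with at least a 2-fold change and 5 CPM in the higher group, the 5 highest Rab genes per kb, genes studied in antigen presentation, and up to 3 members of each regulator list per comparison. Other genes and changes were chosen after their values were seen, also where this is not said. Examples are Rab11a and Rab33b in hybrid cells, Rab19 in Nfil3-/- cDC1 and Rab32 in Nfil3-/- hybrid cells. The members and lists were chosen with earlier results of these data known. Alternatives were DESeq2 1.42.0, median-ratio size factors, no filter on low counts, a replicate block, a term for libraries with Xist, a fit of only the groups compared and leaving out each library. The steps were tested on simulated counts.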

Additional observations from a re-analysis of the deposited data

Results flagged for a closer look

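The H/H effect on Rab7b differed between cDC1 and cDC2 by -2.65 on the log2 scale in a direct test of the difference (± 0.37 SE, adjusted p = 0.00303, edgeR). Rab7b had 852 and 898 CPM in H/H cDC1 against 974 and 1077 CPM in WT cDC1, and 21.4 and 37.9 CPM in H/H cDC2 against 4.97 and 6.07 CPM in WT cDC2. The H/H effect on Rab33b differed between cDC1 and cDC2 by -0.84 on the log2 scale in the same test (± 0.168 SE, adjusted p = 0.0137). It had 29.5 and 29.4 CPM in H/H cDC1 against 50.3 and 45.6 CPM in WT cDC1, and 23.9 and 24.1 CPM in H/H cDC2 against 23.2 and 20.5 CPM in WT cDC2.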

How the results depend on the processing

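Among 89 calls of a Rab gene with at least 5 CPM in a comparison, DESeq2 and median-ratio size factors kept all 89, 45 were kept by every alternative, 44 were lost by at least 1, and none changed direction. Leaving out 1 library lost 42, fitting only the groups compared lost 15 and no filter on low counts lost 5. A replicate block lost 5 of 19 in experiment 2 and none of 70 in experiment 1, where it is also the term for Xist, and a term for Xist in experiment 2 lost 2 of 19. Differences between replicate 1 and replicate 2 were weakly correlated between groups in experiment 1 and had no common direction in experiment 2. The correlations ran from 0.0303 to 0.337 in experiment 1 (median 0.141) and from -0.203 to 0.237 in experiment 2 (median -0.0137). They were thus low but all positive in experiment 1, where the replicate number also goes with Xist. The labels do not say whether libraries of the same replicate number share an origin, and the main fit did not pair them. None of the 13 Rab genes described as at least 2-fold different between WT cDC1 and WT cDC2 lost its call in any of these. Counts of Rab genes called moved by over 1.5 times as follows. With no filter they were 1 for H/+ against WT cDC2 (0), 2 for H/H against WT cDC2 (1), 1 for H/H against H/+ hybrid cells (0), 3 for H/H against WT cDC1 in experiment 2 (5), 7 for Nfil3-/- against H/H hybrid cells (4) and 5 for Zeb2 -165D123 against H/H hybrid cells (2), the main counts standing in brackets. With the replicate block they were 1 for H/+ against WT cDC2, 6 for H/H hybrid cells against H/H cDC1 in experiment 1 (3), 3 for H/H against WT cDC1 in experiment 2 and 1 for Zeb2 -165D123 against H/H hybrid cells. With only the groups compared they were 0 for H/+ against WT cDC1 (2), 0 for H/H against WT cDC2, 0 for H/H against WT cDC1 in experiment 2, 1 for Nfil3-/- against H/H cDC1 (2) and 10 for Nfil3-/- against H/H hybrid cells. With the term for Xist they were 1 for Nfil3-/- against H/H cDC1 and 1 for Zeb2 -165D123 against H/H hybrid cells, and with DESeq2 they were 1 for H/+ against WT cDC2 and 7 for Nfil3-/- against H/H hybrid cells. Leaving out 1 library gave 1 to 2 for H/+ against WT cDC1, 1 to 3 for H/H against WT cDC1 in experiment 1 and 2 in experiment 2, 0 to 1 for H/H against WT cDC2, and 1 to 2 for the difference of the H/H effects. It gave 6 to 12 for H/+ hybrid cells against H/+ cDC1, 0 to 1 for H/H hybrid cells against H/H cDC1 in experiment 1 and 3 to 6 in experiment 2, 0 to 1 for Nfil3-/- against H/H cDC1, 0 to 2 for Nfil3-/- against H/H hybrid cells and 0 to 2 for Zeb2 -165D123 against H/H hybrid cells. The cause of these shifts was not tested. With 2 libraries per group, single calls under 2-fold depend on the spread shared over all groups.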

Other observations

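Rab4a, a Rab of fast recycling from early endosomes, passed no test but was counted unevenly over the genotypes, a pattern chosen after its values were seen. It had 3 to 19 counts in each of the 10 H/H libraries (103 in all), 10 to 16 counts in each of 4 H/H Nfil3-/- libraries and 10 counts in each of 2 H/H Zeb2 -165D123 libraries, against 0 to 2 counts in the 6 WT libraries (3 in all, with 4 libraries at 0). The 6 H/+ libraries had 32 counts, with 0 in each replicate 1 and 3, 11 and 18 counts in replicate 2 of cDC1, hybrid cells and cDC2. For H/H against WT cDC1 the adjusted p was 0.399 in experiment 1 and 0.086 in experiment 2 (edgeR). Rab4a lies at chr8:123805985-123835287, 3.05 Mb from Irf8 at chr8:120736358-120756694 (GRCm38, GENCODE M21). H/H and WT libraries did not overlap in counts.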
